A study of Homo sapiens with 4 samples.

Results

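The genes CCN1 to CCN6, THBS1, THBS2, THBS3 and ANKRD1 were examined in gene expression arrays of cells that the submitters label PC3. PC3 is a line derived from a bone metastasis of prostate cancer, and the label is checked below. All 10 genes were found among the 18417 genes of the arrays. They were taken by name, under current symbols (CCN1 was formerly CYR61, and CCN2 was CTGF), from probe sets that the platform annotation ties to 1 symbol alone, and each had 1 such probe set. Control cells are described as carrying the empty vector pBABE (VC-PC3, titled PC3-SCR by the submitters). The others are described as over-expressing PDEF, the ETS transcription factor encoded by SPDEF (PDEF-PC3), with 2 arrays in each group. Both groups were grown in DMEM/F12 medium with 10% fetal bovine serum, and the study describes the PDEF cells as stably transfected, without saying whether they are 1 clone. The comparison addresses whether genes known as readouts of the cofactor YAP, and their relatives, differ between the groups.

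CCN proteins and thrombospondins are matricellular: they are secreted into the matrix to signal to cells rather than to hold tissue together. CCN proteins are built from modules that resemble parts of insulin-like growth factor binding proteins, von Willebrand factor and thrombospondin, and they bind integrins and heparan sulfate proteoglycans. THBS1 and THBS2 carry thrombospondin type 1 repeats, which THBS3 lacks, and THBS1 can activate latent TGF-beta. ANKRD1 is not secreted. It is an ankyrin repeat protein of the nucleus and of the muscle sarcomere, and it stands here because CCN1, CCN2 and ANKRD1 are the genes most often measured as outputs of YAP bound to TEAD factors on DNA.

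The sequences upstream of the transcription start are shown for CCN2, THBS1 and THBS2, which were called lower in PDEF-PC3, and for ANKRD1, which was called higher. They were chosen because all of them hold the TEAD core motif CATTCC or its reverse complement GGAATG. The signals of THBS2 were in the range of background in every array. Capitals mark that motif. The runs are the 250 bases before the start, 5′ to 3′ on the strand of the gene, from RefSeq on GRCh38.p14. CCN2 lies on the minus strand (chr6:131951373-131951622), as do THBS2 (chr6:169253847-169254096) and ANKRD1 (chr10:90921088-90921337), and THBS1 lies on the plus strand (chr15:39580829-39581078).
CCN2: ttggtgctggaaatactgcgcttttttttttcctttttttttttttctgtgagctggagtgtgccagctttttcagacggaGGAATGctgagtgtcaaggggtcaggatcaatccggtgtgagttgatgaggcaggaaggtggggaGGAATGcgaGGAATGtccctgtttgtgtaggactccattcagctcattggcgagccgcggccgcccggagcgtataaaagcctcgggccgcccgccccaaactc
THBS1: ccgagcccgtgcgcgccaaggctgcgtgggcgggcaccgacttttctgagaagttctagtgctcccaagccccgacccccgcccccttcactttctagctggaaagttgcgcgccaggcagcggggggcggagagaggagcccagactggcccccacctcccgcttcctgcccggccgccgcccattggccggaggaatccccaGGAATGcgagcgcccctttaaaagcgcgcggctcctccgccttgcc
THBS2: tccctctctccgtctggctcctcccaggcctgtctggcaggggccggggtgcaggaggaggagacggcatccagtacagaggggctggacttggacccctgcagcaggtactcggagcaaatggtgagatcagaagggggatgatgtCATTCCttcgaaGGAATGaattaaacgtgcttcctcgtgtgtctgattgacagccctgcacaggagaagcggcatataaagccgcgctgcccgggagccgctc
ANKRD1: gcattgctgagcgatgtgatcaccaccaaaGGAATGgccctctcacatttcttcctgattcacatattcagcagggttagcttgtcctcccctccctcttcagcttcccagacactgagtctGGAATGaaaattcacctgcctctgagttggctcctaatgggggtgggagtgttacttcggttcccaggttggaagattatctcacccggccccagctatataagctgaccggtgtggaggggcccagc

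Before the members are described, the labels of the arrays need a check. SPDEF, the transfected gene, read 5.99 and 6.06 (log2 signal) in VC-PC3 as against 6.85 and 6.73 in PDEF-PC3. That is a log2 fold change of 0.77, and the VC-PC3 signals were only just above the gauge of background described below. CTNNA1 and STAT3 are known to be homozygously deleted in PC3 cells, and their VC-PC3 signals (4.77 and 4.07, and 4.51 and 4.70) lay below the gauge of background used here. The same genes had signals of 9.76 and 9.86, and of 9.06 and 9.05, in the arrays labelled PDEF-PC3, which goes against the label PC3. Over-expression of PDEF and whatever else differs between the cells cannot be told apart in any value given here, and in bulk RNA fewer cells of a type and less RNA per cell cannot be told apart either. The gauge was the highest olfactory receptor gene of each array, which reached 5.94 and 6.01 in VC-PC3 but 5.65 and 5.75 in PDEF-PC3. Olfactory receptor genes were taken as background by assumption, and whether any of them is transcribed in these cells was not tested. The gauge was itself lower in PDEF-PC3, and of 361 olfactory receptor genes 45 were lower and 3 higher by the test described next.

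Of the 10 genes, 7 were lower in the PDEF-PC3 arrays and 1, ANKRD1, was higher, while CCN4 and CCN6 did not pass the test. The test was limma, a linear model of log2 signals, with Benjamini-Hochberg adjustment over all 18417 genes, and an adjusted p under 0.05 made a call. The calls are widespread: 24.0% of all genes were lower and 26.7% were higher. When only the 11238 genes above the gauge in at least 1 array were tested, 8147 of them were called. In that fit 6 of the 10 genes were lower and 1 was higher. Signals of the groups were fully separated for 9 of the 10 genes, with CCN4 as the exception, and the same held for 74.7% of all genes. The median log2 fold change of the 10 genes was -0.64, and that of all genes was -0.05. In 6 of the 10 genes both arrays of at least 1 group were above the gauge, namely CCN1, CCN2, CCN5, THBS1, THBS3 and ANKRD1. CCN3 was above it in 1 VC-PC3 array, and CCN4, CCN6 and THBS2 in none. Whether the arrays of 1 group are separate cultures is not given in the sources, and the p-values then measure only the spread between arrays, which may be technical.

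**Figure D1:**
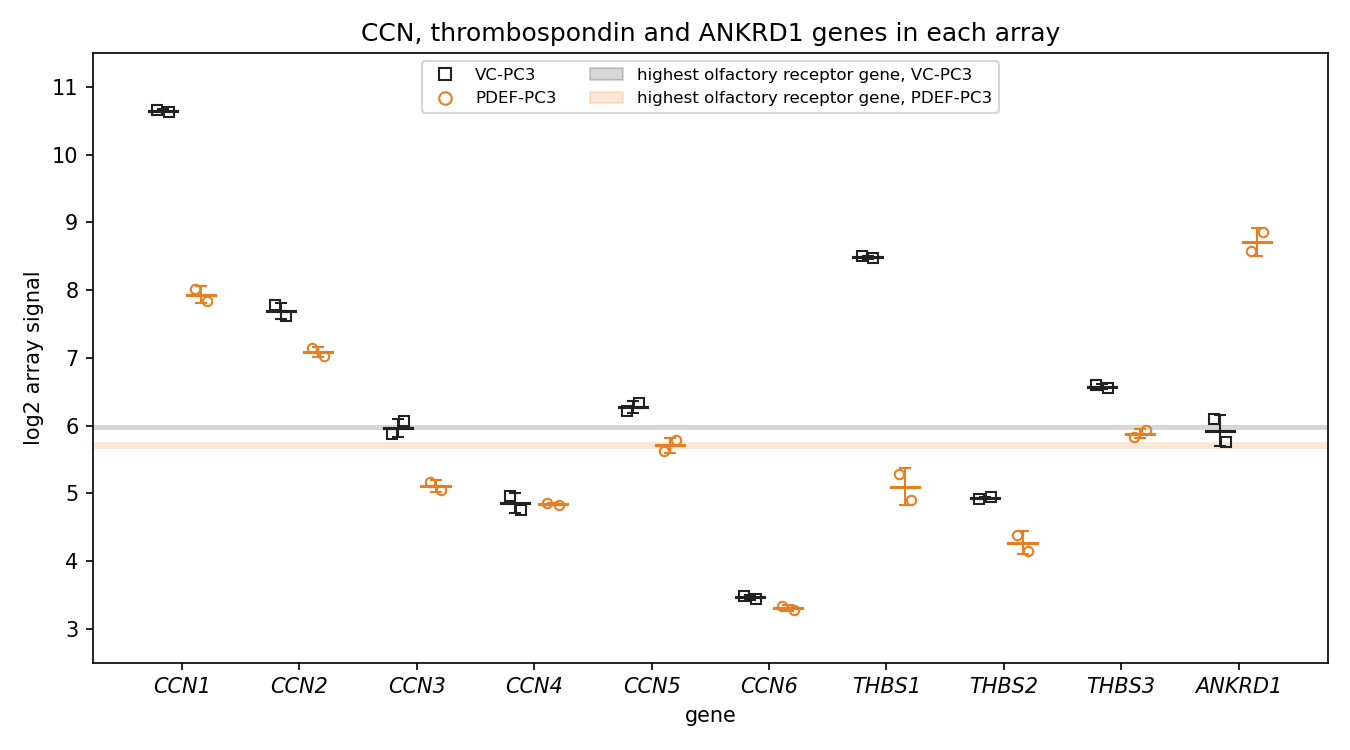
Log2 array signal (vertical axis) of the 10 genes (horizontal axis) in each VC-PC3 array (squares) and PDEF-PC3 array (circles). Lines and bars give the mean and SD of a group (n = 2), and the bands stand for the range of the highest olfactory receptor gene in each group. CCN1 and THBS1 stand far apart between the groups, THBS1 falling below the band from 8.50 and 8.47 to 5.29 and 4.90, and ANKRD1 moves the other way, from 6.09 and 5.76 to 8.57 and 8.86.

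CCN1, which promotes adhesion, migration and angiogenesis through integrins, read 10.66 and 10.63 in the VC-PC3 arrays but 8.02 and 7.84 in the PDEF-PC3 arrays (log2 signal). Every array stood well above the gauge, so the size of this difference is not limited by background. On the log2 scale CCN1 fell by 2.72, with a standard error of 0.095 and an adjusted p of 5.94e-06 from limma, a 6.57-fold lower level. The pair of VC-PC3 arrays differed by far less than the groups (SD 0.021, n = 2), and the PDEF-PC3 arrays had an SD of 0.13 (n = 2). CCN2, the fibrogenic relative of CCN1 that acts downstream of TGF-beta, read 7.78 and 7.61 against 7.14 and 7.03. Its arrays did not overlap between the groups and lay above the gauge. CCN2 fell by 0.61 (adjusted p = 0.00242, standard error 0.098), a 1.53-fold lower level. CCN2 did not pass the threshold when either PDEF-PC3 array was left out, with an adjusted p of 0.0512 without replicate 1 and of 0.0697 without replicate 2.

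The changes of CCN1 and CCN2 were set against each other within arrays, which says nothing of their levels, since each has a probe set of its own. The change of CCN1 minus that of CCN2 was -2.11 log2 units. An exact permutation test of this difference, two-sided, gave p = 0.333, the smallest that 2 arrays against 2 allow, so it cannot support the difference. It was 1 of 3 pairs compared, and the others involve THBS1 signals that were not above the gauge and are not given.

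Among the other CCN genes, the signals were near or below the gauge. CCN3, a member of the family often associated with growth arrest, read 5.87 and 6.06 against 5.17 and 5.05. It fell by 0.86 (adjusted p = 0.000634, standard error 0.10), and its PDEF-PC3 arrays were not above the gauge, so the size is not exact. CCN5, which lacks the C-terminal cystine knot module of its relatives, had signals of 6.21 and 6.33 against 5.63 and 5.79. CCN5 fell by 0.56 (adjusted p = 0.00349, standard error 0.097), with 1 PDEF-PC3 array not above the gauge. The call on CCN5 was lost without VC-PC3 replicate 2 (adjusted p = 0.0644) and without PDEF-PC3 replicate 1 (adjusted p = 0.0627). The olfactory receptor genes, with a median log2 fold change of -0.12, included 9 of 361 that were lower by at least 0.5, so values of this size also occurred among genes taken as background.

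CCN4, a Wnt-induced member of the family, read 4.96 and 4.75 against 4.85 and 4.83. The PDEF-PC3 arrays lay between the VC-PC3 arrays. Its log2 fold change was -0.02 (adjusted p = 0.914), with a 95% confidence interval of the limma fit from -0.26 to 0.23. CCN6, whose loss causes a cartilage disease of childhood, read 3.49 and 3.44 against 3.34 and 3.27, far below the gauge. The log2 fold change of CCN6 was -0.16 (adjusted p = 0.157), with an interval from -0.36 to 0.04. Neither gene stood out from background in any array, and a missed threshold does not show that the groups are alike.

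**Figure D2:**
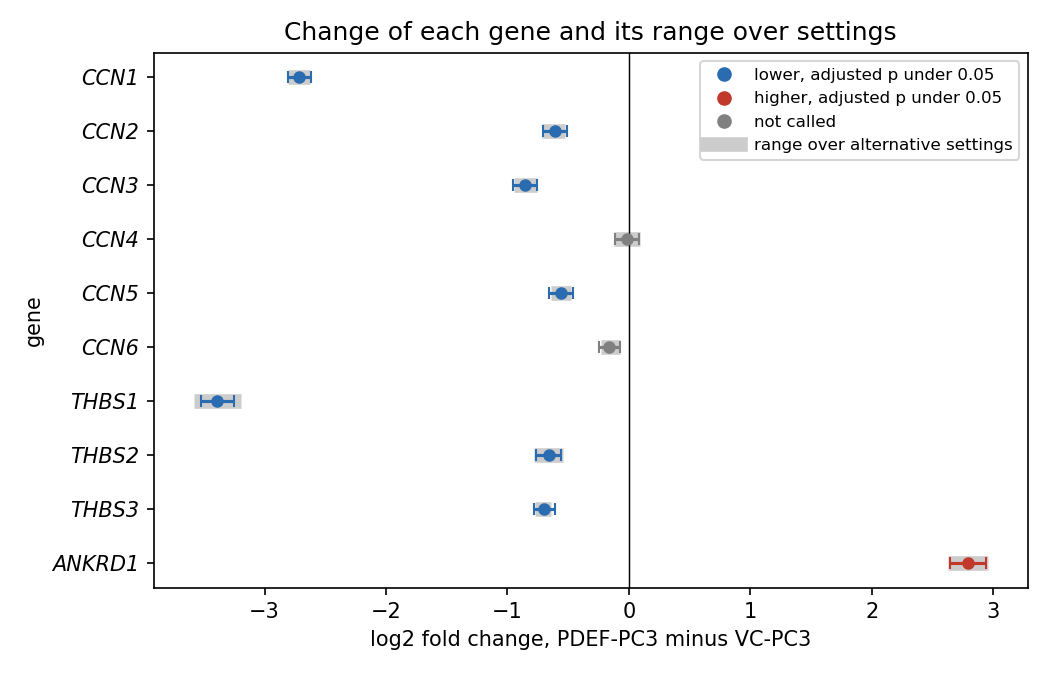
The 10 genes (vertical axis) by their log2 fold change, PDEF-PC3 over VC-PC3 (horizontal axis), with bars for the standard error, 2 arrays per group, and the range over the alternative settings as a grey band. THBS1 at -3.39 and CCN1 at -2.72 lie far from the other falls, which range from -0.86 to -0.56, and ANKRD1 lies at 2.79. The bands stay on 1 side of 0 for every gene but CCN4.

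THBS1, which restrains angiogenesis through CD36 and CD47, read 8.50 and 8.47 in the VC-PC3 arrays but 5.29 and 4.90 in the PDEF-PC3 arrays. Both PDEF-PC3 arrays were below the gauge, so the transcript went from clearly measured to the range of background. On the log2 scale THBS1 fell by 3.39, with a standard error of 0.14 and an adjusted p of 9.08e-06 from limma, which is 10.5-fold on the signals as deposited. With every signal below the gauge raised to that of the gauge, THBS1 was at least 6.89-fold lower, a bound that is also used below for listed genes with 1 group under the gauge. THBS2, an angiogenesis inhibitor close to THBS1 in structure, had signals of 4.92 and 4.94 against 4.39 and 4.15, all below the gauge. THBS2 fell by 0.66 (adjusted p = 0.0023, standard error 0.10). Its call was lost without VC-PC3 replicate 1 (adjusted p = 0.0636) and without VC-PC3 replicate 2 (adjusted p = 0.0669).

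THBS3, a thrombospondin of the pentameric group found in bone and cartilage, read 6.60 and 6.55 against 5.83 and 5.93. Each array was above its gauge, and the groups did not overlap. The PDEF-PC3 signals were close to their gauges of 5.65 and 5.75, so the size is not exact. THBS3 fell by 0.70 (adjusted p = 0.00073, standard error 0.085), a 1.62-fold lower level.

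ANKRD1, the cofactor named for its ankyrin repeats, went in the opposite direction to CCN1 and CCN2. It read 6.09 and 5.76 in VC-PC3, around the gauge, but 8.57 and 8.86 in PDEF-PC3. ANKRD1 rose by 2.79 (adjusted p = 2.42e-05, standard error 0.15), a 6.92-fold higher level on the deposited signals, and 6.34-fold with signals below the gauge raised to it. The muscle genes that ANKRD1 is known to accompany were mostly dim. Among ANKRD1 paralogs and sarcomere genes, measured for 11 of 12 listed, 1 was higher, 2 were lower and 8 were not called, and their median log2 fold change was -0.14. Called were 27.3% of this list and 50.7% of all genes. In both arrays of a group, only 2 of the 11 but 10784 of all 18417 genes were above the gauge, so the shares are not of equally bright genes. The log2 fold change of the paralog ANKRD2 was -0.12 (adjusted p = 0.55) and that of ANKRD23 was -0.25 (adjusted p = 0.0666). MYPN, which encodes the sarcomere protein myopalladin, an ANKRD1 partner, fell from 6.99 and 6.90 to 4.10 and 3.87, the latter below the gauge, which makes it at least 2.37-fold lower. The riser ACTN2, the actinin of muscle Z-discs, was named after its values were seen, and its signals of 5.49 and 5.48 in PDEF-PC3 were not above the gauge.

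The promoters were compared by their letters alone. RefSeq windows were found for 6 of the 10 genes, namely CCN2, CCN6, THBS1, THBS2, THBS3 (2 starts) and ANKRD1, and the 250 bases before each start were searched on both strands. The TEAD core CATTCC was found in 5 of the 6 genes and in 11.9% of 35116 promoters. CCN2 had 3 matches, beginning 169, 104 and 95 bases before the start, and 0.0826% of all promoters had as many. ANKRD1 had 2, at 220 and 128 bases, and THBS2 had 2, at 103 and 91 bases, facing each other, while 0.94% of promoters had at least 2. THBS1 had 1 match 46 bases before the start, CCN6 had 1 at 128 bases, and THBS3 had none. Matches stood before genes that were lower (CCN2, THBS1, THBS2), higher (ANKRD1) and not called (CCN6), though THBS2 and CCN6 were not above the gauge in any array. CCN1 had no window, and a link between matches and changes was not tested.

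The SMAD core CAGAC was found upstream of CCN2, THBS1, THBS2 and ANKRD1, and in 38.0% of all promoters. In ANKRD1 one of its SMAD matches shares a base with the nearer TEAD match. The core CGGAT, which PDEF prefers among ETS factors, was found only in CCN2 of these windows, 139 bases before the start and on the opposite strand, and in 14.9% of all promoters. The general ETS core CGGAA was found in 1 THBS3 start and in 30.3% of promoters, and the box TATAAA in CCN2 and THBS2 and in 10.7%. The AP-1 motif (TGACTCA or TGAGTCA) and the CArG box of SRF were in none of the windows, against 4.2% and 1.16% of all promoters. A match is a run of letters and not a site of binding, and no match says only that the letters are not in the window.

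**Figure D3:**
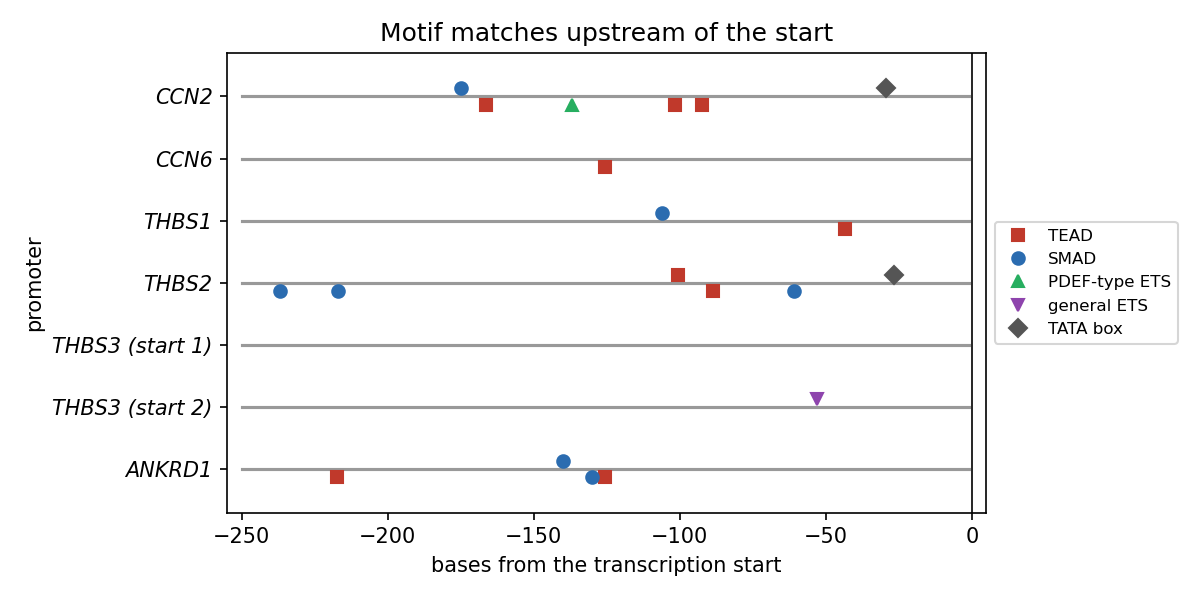
Motif matches (symbols) in the 250 bases before the transcription start (horizontal axis, bases from the start) of 7 promoters of 6 genes (vertical axis), above the line for the strand of the gene and below it for the opposite strand. CCN2 holds 3 TEAD matches, ANKRD1 and THBS2 hold 2 each, and the THBS3 starts hold none.

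Genes beside the members on their chromosomes were described in the same way. The nearest measured protein-coding gene on each side was taken from RefSeq, and of these 20 genes 10 were higher, 4 lower and 6 not called, where 26.7% and 24.0% of all genes were higher and lower. THBS1 fell by 3.39, whereas its neighbours RASGRP1 and FSIP1, both below the gauge, had log2 fold changes of 0.66 and -0.04. CCN1 fell by 2.72 between DDAH1 (-0.41) and ZNHIT6 (0.41), and CCN2 was lower between ENPP1 (0.59) and MOXD1 (0.41), which were higher. ANKRD1 and its neighbours rose together, but the neighbours by less, RPP30 by 0.87 (adjusted p = 0.000245) and PCGF5 by 0.84 (adjusted p = 0.00041). CCN3 stood next to a larger fall, that of MAL2, which fell by 2.73 against 0.86 for CCN3. The difference between a member and its neighbours was not tested.

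**Figure D4:**
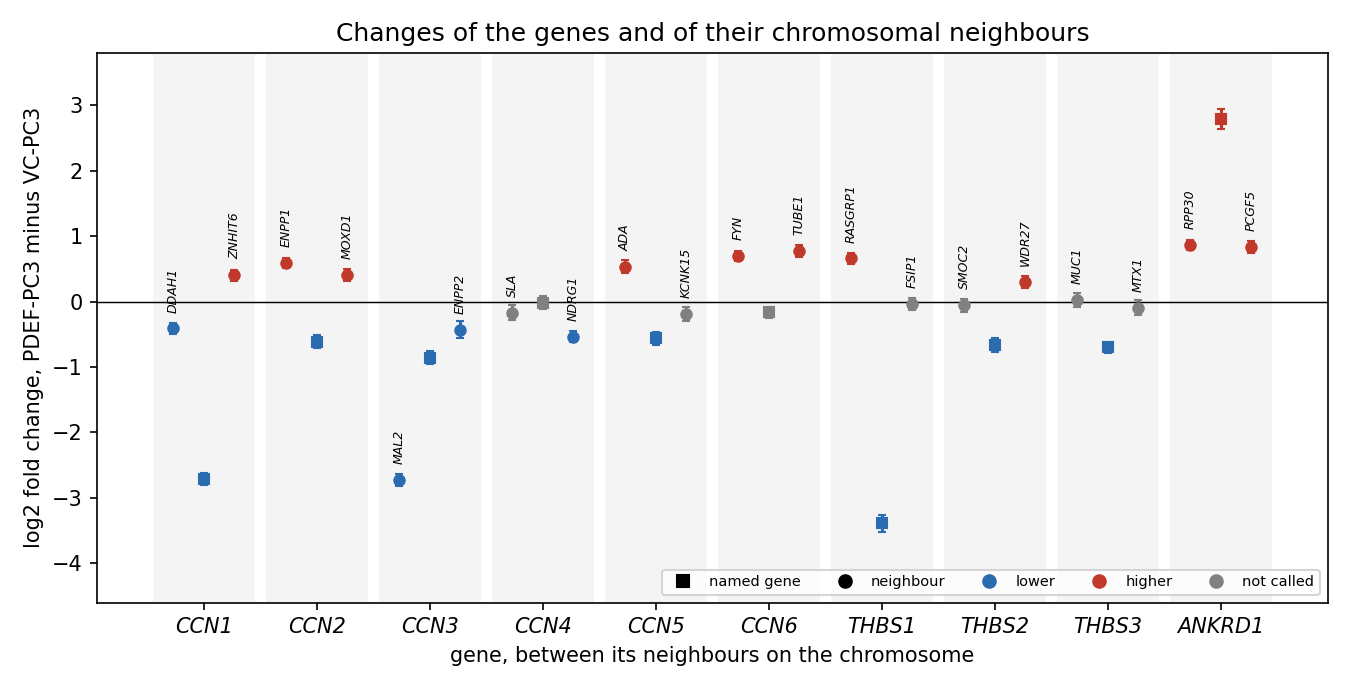
Change on the log2 scale, PDEF-PC3 over VC-PC3 (vertical axis, bars for the standard error, 2 arrays per group), of each of the 10 genes (squares) between its neighbours on the chromosome (circles), in the order of the genes along the horizontal axis. THBS1 and CCN1 lie at -3.39 and -2.72 between neighbours from -0.41 to 0.66, and ANKRD1 at 2.79 lies between neighbours at 0.87 and 0.84.

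The genes whose signals over the 4 arrays were closest to those of a member, each gene centred on its own mean, are given as a description. For CCN1 they were DTX3L, TMEM71 and BDKRB1, at Euclidean distances of 0.084 to 0.099 log2 units and below the gauge in both PDEF-PC3 arrays. For THBS1 they were HCLS1, CSRP1 and S100A16, at distances of 0.14 to 0.17, the first 2 of them not above the gauge in 1 PDEF-PC3 array. For ANKRD1 they were ZSCAN20, ZNF615 and ALX1, at distances of 0.10 to 0.13, all below the gauge in both VC-PC3 arrays. With 2 arrays in each group, such likeness measures little more than a difference of the same size.

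Receptors for these proteins were lower more often than higher in PDEF-PC3. Measured were 18 of 19 listed, of which 10 were lower, 5 higher and 3 not called, at a median log2 fold change of -0.72. Of all genes 24.0% were lower and 26.7% higher. In both arrays of a group, 14 of the 18 but 10784 of all 18417 genes were above the gauge. ITGB3 and ITGB2, counted as lower, were not above the gauge in any array. With a filter on dim genes, by the median level or by the gauge, 8 receptors were lower. These filters left 9208 and 11238 genes, of which 6937 and 8147 were called. ITGA3 and ITGA6, integrin chains that pair with ITGB1 and bind laminin and also thrombospondin or CCN proteins, were both lower: ITGA3 fell by 3.68 and ITGA6 fell by 2.58. ITGB1 itself, chosen as their partner after its values were seen, fell from 11.51 and 11.64 to 9.42 and 9.45. The integrin chain gene ITGA4 was at least 3.23-fold higher and ITGB5 at least 2.73-fold higher, with their VC-PC3 signals below the gauge. Of the receptors of THBS1, chosen likewise, CD47 fell by 0.74 (adjusted p = 0.00043), and CD36 had signals of 2.68 and 2.83 against 2.71 and 2.74, far below the gauge in every array.

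Factors that are known to act on CCN, thrombospondin or ANKRD1 transcription, not all of them as activators, were found among both the higher and the lower genes. Measured were 20 of 21 listed, of which 9 were lower, 5 higher and 6 not called, and the median log2 fold change was -0.20. The share of higher genes in this list was near the 26.7% of all genes, of which 24.0% were lower. In both arrays of a group, 19 of the 20 but 10784 of all 18417 genes were above the gauge. YAP1 read 9.28 and 9.18 against 8.05 and 7.94 and fell by 1.24. SMAD3, a transducer of TGF-beta, fell by 1.96, and the AP-1 subunit gene FOSL1 fell by 2.04, with VC-PC3 arrays as far apart as 9.86 and 8.92. JUN, another AP-1 subunit gene, rose by 3.39, from 8.33 and 8.34 to 11.63 and 11.81, and the TGF-beta receptor gene TGFBR1 rose by 0.90. Without PDEF-PC3 replicate 1 or 2, only 5 of these factors were lower and 2 higher.

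Other genes that YAP and its paralog TAZ activate mostly fell, as CCN1 did. The 19 on the list were all measured, and 16 were lower, 1 higher and 2 not called, while the median log2 fold change was -1.23. Of all genes 24.0% were lower and 26.7% higher. In both arrays of a group, 17 of the 19 but 10784 of all 18417 genes were above the gauge, so the shares are not of equally bright genes. Among the 11238 genes above the gauge in at least 1 array, 8147 were called, and 16 of this list were lower. TGFB2, a ligand of the TGF-beta family, was at least 16.4-fold lower, with PDEF-PC3 signals below the gauge. IGFBP3, an insulin-like growth factor binding protein gene, fell by 3.53, to PDEF-PC3 signals of 5.99 and 5.78. These were close to the gauge, so the size is not exact. FOXF2, a forkhead factor gene, rose by 0.76, a call that was lost without PDEF-PC3 replicate 2, when no gene of the list was higher. These targets are widely used with CCN1, CCN2 and ANKRD1 in such lists, and earlier results on them were known.

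Matricellular genes outside the 10 did not share a direction. Of 13 measured, from 14 listed, 4 were higher, 4 lower and 5 not called, and the median log2 fold change was 0.03. Among all genes 26.7% were higher and 24.0% lower. TGFBI, an adhesion protein gene induced by TGF-beta, fell by 4.98, to PDEF-PC3 signals of 5.92 and 6.05. These were close to the gauge, so the size is not exact. The proteoglycan gene SPOCK1, below the gauge in PDEF-PC3, was at least 8.34-fold lower. The fibulin genes FBLN5 and FBLN1, whose proteins bind elastic fibres and basement membranes, were higher, FBLN5 at least 3.42-fold with VC-PC3 signals below the gauge and FBLN1 by 0.83 on the log2 scale. The pentameric thrombospondins beside THBS3, named after their values were seen, were not above the gauge in any array. THBS4 read 4.56 and 4.55 against 5.61 and 5.45 (adjusted p = 0.000227), and COMP read 5.29 and 5.30 against 5.51 in both PDEF-PC3 arrays (adjusted p = 0.0634).

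The type 1 repeat of THBS1 and THBS2 is found in many other secreted or membrane proteins. Measured were 24 of 26 such genes, with 8 lower, 5 higher and 11 not called and with a median log2 fold change of -0.18. Called were 54.2% of these genes, near the 50.7% of all genes, of which 24.0% were lower and 26.7% higher. In both arrays of a group, 9 of the 24 and 10784 of all 18417 genes were above the gauge. The protease gene ADAMTS6, below the gauge in PDEF-PC3, was at least 5.35-fold lower, and THSD4, whose protein acts on fibrillin fibres, fell by 1.94. SPON1, an adhesion protein gene, and the protease gene ADAMTS9 were below the gauge in VC-PC3 and higher in PDEF-PC3, ADAMTS9 by at least 1.22-fold. The count of 8 that fell was 3 when only genes above the gauge in at least 1 array were tested, 5 with the replicate number as a block, 4 without VC-PC3 replicate 1 and 3 without either PDEF-PC3 array.

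**Figure D5:**
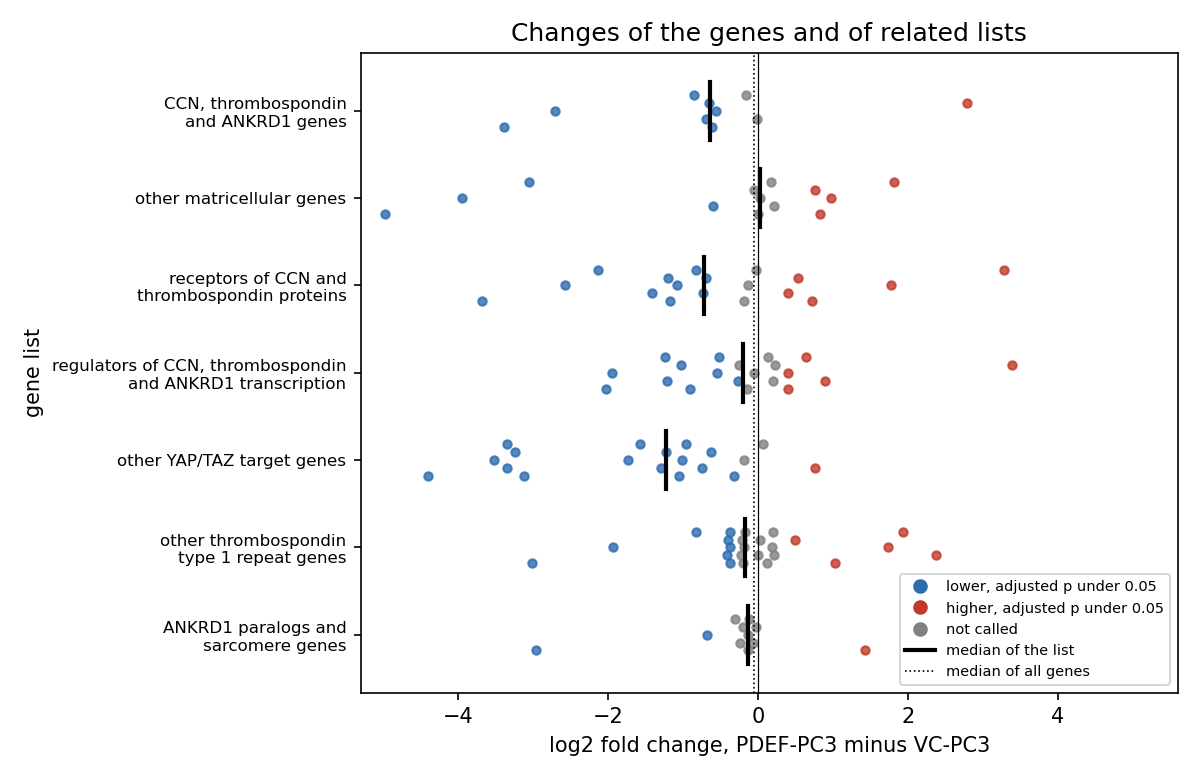
Genes of each list (vertical axis) by their log2 fold change, PDEF-PC3 over VC-PC3 (horizontal axis), 2 arrays per group, coloured by call, with the median of each list as a bar and that of all genes as a dotted line. The other YAP/TAZ targets lie mostly to the left, with a median of -1.23, the receptors have a median of -0.72, and the other matricellular genes spread around 0.03.

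Markers of fibroblasts, endothelium and muscle, which can express these genes strongly, were mostly dim in both groups. Of 6 fibroblast genes only COL1A1 was above the gauge in both arrays of a group, and the mean log2 signal of the list was 5.43 and 5.24 in VC-PC3 and 4.79 and 4.72 in PDEF-PC3. Of 5 endothelial genes only KDR was above it, in VC-PC3, with list means of 4.80 and 4.97 against 4.17 and 4.16. Of 6 muscle genes measured only DES was, with list means of 4.67 and 4.64 against 4.68 and 4.75. Of 5 epithelial genes 4 were above it in VC-PC3 and 2 in PDEF-PC3, with list means of 8.06 and 8.02 against 7.03 and 7.18. CDH1, the defining cadherin of epithelium, was below the gauge in all arrays, and EPCAM had signals of 7.81 and 7.74 against 5.65 and 6.53. The keratin genes KRT8 and KRT18 were above the gauge in every array. KRT8 read 9.91 and 9.89 against 9.29 and 9.24, and KRT18 read 9.29 and 9.17 against 8.88 and 9.08. KRT19 read 7.84 and 7.67 against 5.85 and 5.57. EPCAM and KRT18 each had 2 probe sets, and only the brighter is given, whose place in the genome was not checked. The part of these markers in the changes of the 10 genes was not tested.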

How the data were processed

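Total RNA of the 4 cell samples was hybridized to Affymetrix HuGene-1.0-st-v1 arrays. The authors deposited log2 signals of 33297 probe sets, made with Transcriptome Analysis Console per the labels, of which neither version nor normalization method is stated in the sources used here. A base of 2 was inferred from the values, which were used as deposited since array medians were 5.41 to 5.46, and a shift of all genes one way would not be seen. Of the probe sets, 19460 had 1 symbol and were used, 1754 had several, and 12083 are unnamed here. Symbols were updated through RefSeq (GRCh38.p14) for 99.8% of the entries. For a gene with several probe sets the brightest over the 4 arrays was taken, which gave 18417 genes, and dim genes were kept.

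Groups were compared with limma 3.58.1 in R 4.3.3 (lmFit and eBayes, two-sided, 2 residual and 4.23 prior degrees of freedom, Benjamini-Hochberg over all genes), which was tested on simulated data. The number of arrays limits the precision. The members and gene lists were chosen with earlier results of these data known. The text names all 10 members, the checks SPDEF, YAP1, CTNNA1 and STAT3, up to 2 rises and 2 falls of the largest size in each list (called, groups not overlapping, and the higher group above the gauge in both arrays), and 3 genes closest to CCN1, THBS1 and ANKRD1 over the arrays. Outside this rule, neighbouring genes were added by position, cell type markers come from their lists, and ANKRD2, ANKRD23, ACTN2, ITGB1, CD47, CD36, THBS4 and COMP were chosen after their values were seen. Alternatives were the mean over probe sets, quantile normalization, median centring, 2 filters on dim genes, a variance trend, a replicate block and leaving out each array.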

Additional observations from a re-analysis of the deposited data

How the results depend on the processing

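The members kept direction and side of the threshold in 95 of 102 log2 fold changes over the alternatives. The exceptions were the lost calls of CCN2, CCN5 and THBS2 given above and CCN4, never called, which ranged from -0.12 to 0.09 when 1 array was left out (0.09 without VC-PC3 replicate 1). With 1 array left out in turn, 5336 to 6460 of all genes were called, in place of 9337, with fewer samples in the fit. These fits left 3 to 5 receptors higher, 5 to 8 regulators lower and 2 to 3 higher, 0 to 1 other YAP/TAZ targets higher, 3 to 6 type 1 repeat genes lower, and 1 to 2 sarcomere and paralog genes lower and 0 to 1 higher. Quantile normalization and median centring each left 3 regulators higher, and median centring, which moved the median of all genes to -0.12, left 4 sarcomere and paralog genes lower. A test of only the 9208 genes above the median level drops CCN3, CCN4, CCN5, CCN6 and THBS2, and 6937 of those genes were called. In it 4 members were lower and 1 was higher. There, 2 matricellular genes, 3 receptors and 1 type 1 repeat gene were higher. In the same fit 3 type 1 repeat genes were lower and 0 sarcomere and paralog genes were called. Of the 11238 genes above the olfactory receptor gauge, 8147 were called. Among them 3 type 1 repeat genes and 1 sarcomere gene were lower and 0 sarcomere genes higher. Same-numbered arrays were not shown to be paired (correlation of their deviations 0.022), and with the replicate block 5 type 1 repeat genes were lower, with no other of these counts moved by over 1.5 times. The causes were not tested, and signals near background limit the size of the changes of CCN3, CCN5, THBS1, THBS2, THBS3 and ANKRD1.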
